A study of Homo sapiens with 22 samples.

Results

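The RNA of MOLM-13 cells treated with FP54 was compared with that of MOLM-13 cells treated with DMSO, and the genes were read by function. The libraries chosen were the 3 FP54 and 3 DMSO mRNA-seq libraries of this line, 6 of 22 samples listed. The genes chosen were those with a mean of at least 1 RPKM (reads per kilobase of transcript, scaled to the depth of the library) over these 6 libraries, 9710 of the 20411 genes in the table. MOLM-13 is an established human acute myeloid leukemia line of monocytic type, labelled here as wild type. In both groups the cells were kept for 48 hours with 2 μM FP54 or with DMSO, its solvent, and RNA with a poly(A) tail was sequenced. FP54 is a bifunctional compound that holds a ligand of FTO, a demethylase of m6A in mRNA, and a ligand of VHL, the substrate receptor of a ubiquitin ligase, and the study used it to have FTO protein degraded. Not analysed here were 6 RNA-seq libraries of NB4 cells and 10 libraries of m6A-seq or polysome-seq. Ribosome biogenesis, MYC targets, the cell cycle and the histones are not described as groups below, and a gene that also stands on one of those lists is given with the group described.

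As background, m6A is a methyl mark on adenosines of mRNA, laid down by the METTL3 and METTL14 complex, removed by FTO and ALKBH5 and read by YTH proteins, and it bears on the stability and translation of the transcripts that carry it. Leukemic monoblasts stand between a granule-rich progenitor and a mature monocyte, which is rich in lysosomes, Fc receptors, integrins and the enzymes of leukotriene synthesis. Dividing cells also hold several transcriptional programs that supply growth: SREBP factors drive the genes of sterol and fatty acid synthesis, ATF4 drives those of amino acid supply and tRNA charging, and HSF1 drives those of the chaperones. TFEB and its relatives drive the genes of the lysosome.

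Reads on genes came to between 16308923 and 17357940 in the DMSO libraries and between 5835173 and 19202930 in the FP54 libraries, FP54 replicate 2 being the shallowest. Differences were fitted with limma on log2(RPKM + 0.1), so that fold changes of low genes are understated, and every log2 fold change is FP54 minus DMSO. A gene was called lower or higher where the unadjusted p was under 0.01 and the log2 fold change 0.5 or more in size, the cutoff of the study's methods, and the Benjamini-Hochberg adjusted p over all 9710 genes is given beside it. Of these genes, 878 were called lower (9.04%) and 903 were called higher (9.3%), 1781 in either direction (18.3%). The values of the 2 treatments did not overlap for 3607 genes (37.1%), and the median log2 fold change was 0.0033. The labels number the replicates without saying that they were separate cultures, so the p-values measure the spread between these libraries, which may be technical. With 3 libraries against 3, an exact permutation test cannot give a two-sided p below 0.1. In RNA from a whole culture, fewer cells of a type and less RNA per cell cannot be told apart.

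The lists of lipid synthesis, amino acid supply, chaperones and mitochondria held more genes called lower than higher, and those of the lysosome and of phagocytes more called higher than lower. For mitochondria the share was near that over all genes: 31 of 257 tested were called lower (12.1%, against 9.04%) and 4 higher. That count of 31 ran from 14 to 80 with 1 library left out. The functional lists together held 1568 tested genes, of which 228 were called lower and 157 higher, with a median log2 fold change of -0.06. Every list was written from general knowledge with earlier results of these data known, so its counts describe the libraries and support nothing beyond them. Of the 878 genes called lower, 107 (12.2%) were on a list of ribosome biogenesis, MYC, cell cycle or histone genes, 228 were on one of the lists described below, 17 of them on both, and 560 were on neither. Among the 17 are RAN, RANBP1, HSPH1, NDUFAF4, TFB2M, NME1 and SRM (MYC), RANGAP1, CCND1 and CDKN1A (cell cycle) and MRPL36 (ribosome biogenesis). Of the 903 called higher, 24 (2.66%) were on such a list, 157 on one of those described, 0 on both, and 722 on neither. Reads could be counted back from the RPKM for 869 of the genes called lower and 896 of those called higher, and 19 and 8 of these had 10 reads or fewer in their lowest library.

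**Figure D1:**
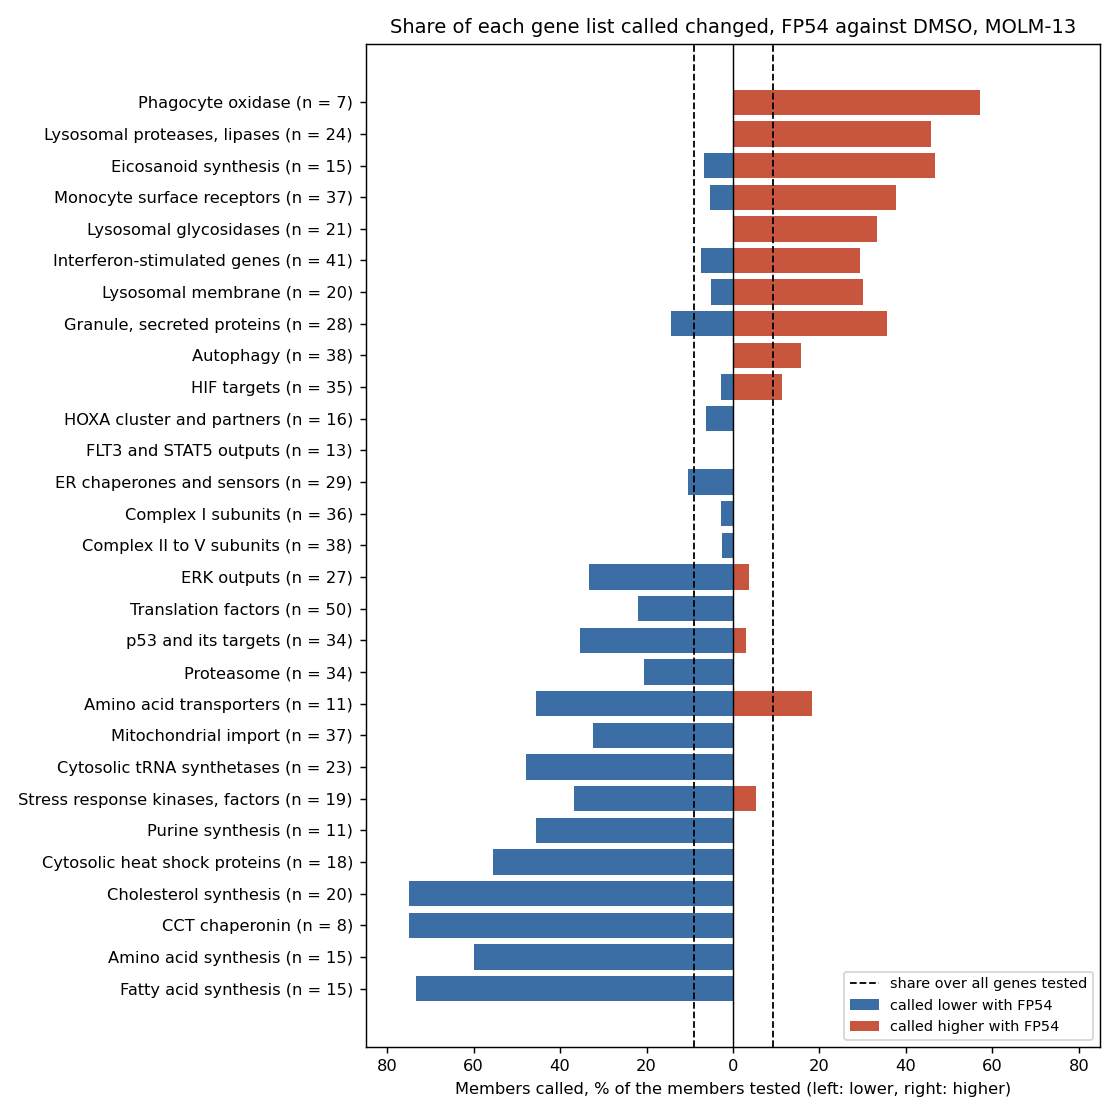
Share of the tested members of each gene list that was called lower (blue, to the left) or higher (red, to the right) with FP54, in percent of the members tested, ordered by the median log2 fold change of the list, with n the members tested. The dashed lines stand at the shares over all 9710 genes, 9.04% lower and 9.3% higher; 11 of 15 fatty acid synthesis genes were lower and 4 of 7 phagocyte oxidase genes were higher.

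Among single genes outside those lists, the largest decreases were in genes of scattered function. MEX3A, an RNA-binding protein of the KH family (chromosome 1, 156072013 to 156082465), was at 3.79, 2.66 and 5.20 RPKM with DMSO and 0.237, 0.729 and 0.429 RPKM with FP54. Every FP54 library was below every DMSO library, and the log2 fold change was -2.86 (SE 0.34, limma, adjusted p = 0.00168). INHBA, the subunit of activin A, was at 22.2, 11.9 and 23.7 RPKM with DMSO and 2.00, 4.66 and 3.78 RPKM with FP54, with a log2 fold change of -2.45 (SE 0.32, limma, adjusted p = 0.00228). CSPG4, the NG2 proteoglycan that marks leukemias with KMT2A rearrangement, was at 3.54, 2.65 and 3.05 RPKM with DMSO and 0.534, 0.559 and 0.331 RPKM with FP54, with a log2 fold change of -2.48 (SE 0.24, limma, adjusted p = 0.000985). SLC7A2, a transporter of cationic amino acids, SPON2, a matrix protein, and SHANK1, a synaptic scaffold, had log2 fold changes of -2.26 ± 0.38, -2.29 ± 0.18 and -2.18 ± 0.29 (± SE, as below). GAL, the galanin peptide, and VAT1L had log2 fold changes of -2.47 ± 0.59 and -2.55 ± 0.29, on as few as 2 and 8 reads in the lowest library. DDN, dendrin, had a log2 fold change of -2.47 ± 0.38. Among genes with at least 20 RPKM in a treatment, MLC1, a membrane protein, and RPL22L1, a paralog of a ribosomal protein, fell from means of 40.9 to 13.2 RPKM and 79.3 to 29.3 RPKM.

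Among the largest increases outside those lists were genes of the cell surface and the matrix. DTX4, a ubiquitin ligase of the Deltex family (chromosome 11, 59171430 to 59208588), was at 0.968, 1.41 and 1.13 RPKM with DMSO and 7.95, 6.08 and 5.05 RPKM with FP54, with a log2 fold change of 2.34 (SE 0.22, limma, adjusted p = 0.000985). MMP9, the gelatinase of neutrophils and macrophages (chromosome 20, 46008908 to 46016561), was at 0.802, 0.788 and 0.938 RPKM with DMSO and 4.06, 4.48 and 3.63 RPKM with FP54, with a log2 fold change of 2.14 (SE 0.18, limma, adjusted p = 0.000985). In both genes every FP54 library was above every DMSO library. SULF2, which removes sulfate from heparan sulfate chains, was at 7.98, 10.7 and 7.61 RPKM with DMSO and 46.6, 34.8 and 29.5 RPKM with FP54, with a log2 fold change of 2.05 (SE 0.20, limma, adjusted p = 0.000985). ADAM28, a membrane metalloprotease of leukocytes, ARRDC3, an arrestin-like adaptor, and NOXA1, an activator of a NADPH oxidase, had log2 fold changes of 2.04 ± 0.21, 2.01 ± 0.20 and 2.00 ± 0.22. TPTE2, a phosphatase with close copies elsewhere in the genome, had a log2 fold change of 2.01 ± 0.29, on 16 reads in its lowest library. Among abundant genes, JAML, an adhesion molecule of leukocytes, rose from a mean of 5.68 to 21.1 RPKM, LSP1, an actin-binding protein of leukocytes, from 29.4 to 91.5 RPKM, TMEM176B, a membrane protein of myeloid cells, from 7.65 to 22.7 RPKM, and ADAMDEC1, a metalloprotease of macrophages, from 13.6 to 39.6 RPKM. The library kit was a stranded one, but the counting strand is not stated. The annotated spans of DTX4, MMP9, SULF2, ADAM28, ARRDC3, NOXA1, TPTE2, LSP1, TMEM176B and ADAMDEC1 overlap a gene on the other strand, as that of SLC26A11 (2.06 ± 0.34) overlaps SGSH. Whether their exons overlap was not checked, so it is not known whether such pairs share reads.

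Fatty acid and cholesterol synthesis held the largest shares of lower genes together with the CCT chaperonin. Of the 20 cholesterol synthesis enzymes tested of 20 listed, 15 were called lower and 0 higher, and 19 had a log2 fold change below 0 (49.7% of all genes tested did). Of the 15 fatty acid synthesis genes tested of 16, 11 were called lower and 0 higher. The medians were -0.77 and -1.16. FASN, which builds palmitate (chromosome 17, 82078338 to 82098294), was at 40.01, 19.4 and 33.1 RPKM with DMSO and 6.66, 6.48 and 12.3 RPKM with FP54. DMSO replicate 2 was the lowest of the DMSO libraries and still lay above every FP54 library, and the log2 fold change was -1.86 (SE 0.30, limma, adjusted p = 0.00454). ACLY, which makes cytosolic acetyl-CoA from citrate (chromosome 17, 41866917 to 41930542), was at 86.8, 60.97 and 75.5 RPKM with DMSO and 19.4, 25.3 and 30.1 RPKM with FP54, with a log2 fold change of -1.58 (SE 0.19, limma, adjusted p = 0.00168). SCD, the desaturase that makes oleate and the most abundant mRNA of this list, was at 423, 371 and 361 RPKM with DMSO and 136, 139.9 and 214 RPKM with FP54, with a log2 fold change of -1.26 (SE 0.19, limma, adjusted p = 0.00339). Elongation and desaturation of fatty acids followed the same side: ELOVL6 had a log2 fold change of -1.56 ± 0.28, FADS1 of -1.39 ± 0.19 and FADS2 of -1.13 ± 0.18. ACACA, which commits acetyl-CoA to fatty acid synthesis, fell by 1.51 on the log2 scale, and ACSL3 and ACSL4, which activate fatty acids, had log2 fold changes of -1.34 ± 0.21 and -1.07 ± 0.17. ACSL1 was at means of 19.03 to 19.01 RPKM, TECR at 20.2 to 20.9 RPKM and ELOVL1 at 5.44 to 4.53 RPKM, none of them called.

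In the mevalonate pathway, HMGCS1, an early enzyme of the pathway (chromosome 5, 43287470 to 43313512), was at 163, 135 and 174 RPKM with DMSO and 46.2, 74.2 and 66.4 RPKM with FP54. All 3 FP54 libraries were below all 3 DMSO libraries, with a log2 fold change of -1.36 (SE 0.19, limma, adjusted p = 0.00267). Called members lay in early and late steps: ACAT2 (-1.08 ± 0.14), MVK (-0.89 ± 0.15), MVD (-0.99 ± 0.15), IDI1 (-0.78 ± 0.17) and FDPS (-0.76 ± 0.14) make the isoprenoid units and their precursors, and CYP51A1 (-0.89 ± 0.22), MSMO1 (-0.98 ± 0.20) and DHCR7 (-0.85 ± 0.19) act on the sterol ring. The span of ACAT2 overlaps TCP1 and SOD2 on the other strand. FDFT1, PMVK and TM7SF2 were not called, with log2 fold changes of -0.27 ± 0.13, -0.04 ± 0.20 and 0.22 ± 0.25. Without DMSO replicate 1 the number of cholesterol synthesis enzymes called lower was 12, the lowest with any library left out, and for fatty acid synthesis the lowest was 10.

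Of 8 genes tested of 10 for SREBP regulation and cholesterol uptake, 2 were called lower (25%, against 9.04% of all genes tested). SREBF1, the SREBP factor of fatty acid genes, was at 16.4, 15.7 and 14.9 RPKM with DMSO and 11.6, 7.58 and 11.8 RPKM with FP54, with a log2 fold change of -0.63 (SE 0.18, limma, adjusted p = 0.0387). INSIG1, which holds the SREBP precursors in the endoplasmic reticulum, was at 194, 154 and 166 RPKM with DMSO and 109.8, 97.4 and 127 RPKM with FP54, with a log2 fold change of -0.62 (SE 0.15, limma, adjusted p = 0.0202). The count was 0 without DMSO replicate 1, and 1 without DMSO replicate 2, DMSO replicate 3 or FP54 replicate 2. SREBF2 and SCAP were at means of 45.4 to 46.1 RPKM and 5.92 to 6.46 RPKM, not called. Of 8 tested genes of 10 for cholesterol efflux and LXR targets, APOE and APOC1, apolipoproteins of macrophages, were called higher, with log2 fold changes of 0.95 ± 0.27 and 0.61 ± 0.17. Both calls were lost without FP54 replicate 1 or with no filter on low values, and 1 remained in number without any of the DMSO replicates or without FP54 replicate 3. ABCA1, the efflux pump, was at 0.533, 0.844 and 0.341 RPKM with DMSO and 0.827, 0.802 and 0.916 RPKM with FP54, below the filter and not tested. The sterol regulatory element, searched as TCAC, any base and CCAC on both strands, was found in the promoter window of 2 of 44 matched genes of the sterol lists (4.55%) and of 379 of 27305 genes (1.39%), and neither of the 2, SREBF2 and ACSL1, was called.

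Genes of the integrated stress response, the program by which ATF4 raises amino acid supply, were called lower in 32 of 68 tested members of 73, with 3 called higher and a median log2 fold change of -0.56. Promoter windows from RefSeq on GRCh38.p14, 250 bases before to 50 bases after each gene's start, could be matched for 54 of the 68. The C/EBP-ATF element, searched as TGATGCAA on both strands, was found in 13 of them (24.1%) and in 295 of 27305 genes (1.08%). The 27305 were all genes with a RefSeq window, tested here or not. For every element searched, a gene counted where any of its windows matched. Of the 13, 7 were called lower and 0 higher, and of the whole list 47.1% were called lower. The part of the element in these calls was not tested. The stretches below are shown because they hold this element in the 3 called members with the largest changes, chosen after their values were seen. They are written 5′ to 3′ along the gene, and the capitals mark the element, which in GOT1 and IARS1 lies on the opposite strand.
MTHFD1L: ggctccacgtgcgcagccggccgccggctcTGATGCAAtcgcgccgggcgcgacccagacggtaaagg
GOT1: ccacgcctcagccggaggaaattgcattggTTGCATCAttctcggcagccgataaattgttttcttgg
IARS1: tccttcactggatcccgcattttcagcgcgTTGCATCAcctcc
They lie at chr6:150866327-150866394 on the plus strand, chr10:99430785-99430852 on the minus strand and chr9:92293698-92293740 on the minus strand. MTHFD1L, a mitochondrial enzyme of the folate cycle, had a log2 fold change of -1.21 ± 0.21, GOT1, which makes aspartate, of -1.07 ± 0.23, and IARS1, which charges isoleucine tRNA, of -1.05 ± 0.25. AARS1, CARS1 and TARS1 hold the element as well and were not called, with log2 fold changes of -0.46 ± 0.15, -0.40 ± 0.22 and -0.43 ± 0.12. A match describes the letters in the window and does not show that a factor binds there.

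Among the factors and feedback genes of this response, 7 of 19 were called lower. GDF15, a secreted stress hormone (chromosome 19, 18374731 to 18389176), was at 9.41, 10.9 and 9.75 RPKM with DMSO and 2.62, 1.40 and 2.59 RPKM with FP54, with a log2 fold change of -2.19 (SE 0.23, limma, adjusted p = 0.00112). STC2, a secreted glycoprotein (chromosome 5, 173314723 to 173328447), was at 14.5, 12.5 and 18.3 RPKM with DMSO and 2.39, 4.07 and 3.76 RPKM with FP54, with a log2 fold change of -2.13 (SE 0.22, limma, adjusted p = 0.00103). In both genes the FP54 libraries lay far below the DMSO libraries, with no overlap. INHBE, an inhibin subunit, had a log2 fold change of -1.44 ± 0.31, TRIB3, an inhibitor of ATF4, of -1.11 ± 0.16, and CEBPG, the dimer partner of ATF4, of -0.71 ± 0.19. ATF4 mRNA itself was at 323, 414 and 407 RPKM with DMSO and 366, 396 and 273 RPKM with FP54, with treatments that overlapped. DDIT3, the factor CHOP, was at 58.4, 79.2 and 75.2 RPKM with DMSO and 86.2, 120.3 and 58.5 RPKM with FP54, also overlapping. The kinases EIF2AK1, EIF2AK3 and EIF2AK4 were at -0.11 ± 0.13, -0.13 ± 0.17 and -0.08 ± 0.16 on the log2 scale, none of them called. NUPR1, a stress-induced chromatin protein, was the member called higher, from a mean of 3.24 to 7.56 RPKM.

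Amino acid synthesis had 9 of 15 members called lower and 0 higher, with a median of -0.96. PSAT1, the transaminase of serine synthesis (chromosome 9, 78297125 to 78330093), was at 56.2, 37.7 and 51.8 RPKM with DMSO and 11.7, 15.1 and 31.2 RPKM with FP54. FP54 replicate 3 was the FP54 library nearest to DMSO, and the log2 fold change was -1.43 (SE 0.31, limma, adjusted p = 0.0132). The other enzymes of serine synthesis, PHGDH and PSPH, had log2 fold changes of -1.02 ± 0.17 and -1.16 ± 0.19, GPT2, which makes alanine, of -1.34 ± 0.20, CTH, which makes cysteine, of -0.96 ± 0.21, and PYCR1, which makes proline, of -1.22 ± 0.32. The call of PYCR1 was lost without DMSO replicate 3 or FP54 replicate 1. ASNS, asparagine synthetase, was at 14.5, 10.5 and 13.5 RPKM with DMSO and 6.32, 8.02 and 10.9 RPKM with FP54, and its log2 fold change of -0.63 (SE 0.21, limma, adjusted p = 0.0606) was not called. Among amino acid transporters, 5 of 11 were called lower and 2 higher. SLC7A1, the transporter of arginine, had a log2 fold change of -1.45 ± 0.30, and SLC7A5, that of leucine, was at 28.2, 16.3 and 25.7 RPKM with DMSO and 10.3, 9.72 and 15.03 RPKM with FP54, with a log2 fold change of -0.99 (SE 0.23, limma, adjusted p = 0.0178). SLC43A2, another carrier of large neutral amino acids, rose from a mean of 0.761 to 2.17 RPKM, and SLC36A1, which exports amino acids from the lysosome, from 1.80 to 3.26 RPKM. Of 23 cytosolic tRNA synthetases and their cofactors, 11 were called lower and 0 higher, and 7 were lower without FP54 replicate 1. VARS1 and GARS1, which charge the tRNAs of valine and glycine, had log2 fold changes of -1.29 ± 0.21 and -1.27 ± 0.19, and EEF1E1, a cofactor of the synthetase complex, of -1.16 ± 0.27. WARS1 and QARS1 were at 0.07 ± 0.12 and 0.11 ± 0.12, not called.

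Many chaperones of the cytosol fell, while most of those of the endoplasmic reticulum were not called. Of 18 cytosolic heat shock proteins tested of 21, 10 were called lower, of 8 subunits of CCT, the chamber that folds actin and tubulin, 6 were, and of 29 genes of the endoplasmic reticulum tested of 31, 3 were. None of the 3 lists had a member called higher. The medians were -0.71, -0.81 and -0.09. The heat shock element, searched on both strands as GAA, any 2 bases, TTC, any 2 bases and GAA, was found in 7 of 16 matched promoter windows of heat shock proteins (43.8%) and in 166 of 27305 genes (0.608%). Of the 7, 4 were called lower (of the whole list 55.6% were), HSPA8, HSP90AA1, HSP90AB1 and DNAJA1, and 0 higher. The stretches around it are shown for the first 3 of these, again chosen after their values were seen, with the element in capitals.
HSPA8: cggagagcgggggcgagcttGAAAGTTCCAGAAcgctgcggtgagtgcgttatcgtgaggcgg
HSP90AA1: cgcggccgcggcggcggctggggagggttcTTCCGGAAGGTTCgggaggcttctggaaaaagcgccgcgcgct
HSP90AB1: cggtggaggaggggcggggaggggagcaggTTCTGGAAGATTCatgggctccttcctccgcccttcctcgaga
They lie at chr11:123062324-123062386 on the minus strand, chr14:102087090-102087162 on the minus strand and chr6:44247748-44247820 on the plus strand, and in the last 2 the element lies on the opposite strand of the gene. DNAJB6, CHORDC1 and SERPINH1 also hold it and were not called, with log2 fold changes of -0.50 ± 0.14, -0.60 ± 0.21 and 0.27 ± 0.16.

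HSPA8, the constitutive HSP70 of the cytosol (chromosome 11, 123057489 to 123063230), was at 324, 261 and 317 RPKM with DMSO and 77.5, 118 and 137 RPKM with FP54. Every FP54 library was below every DMSO library, with a log2 fold change of -1.47 (SE 0.21, limma, adjusted p = 0.00267). HSP90AB1, one of the most abundant chaperones, was at 1299, 1505 and 1654 RPKM with DMSO and 636, 1162 and 742 RPKM with FP54, where FP54 replicate 2 came close to the DMSO libraries, and its log2 fold change was -0.85 (SE 0.22, limma, adjusted p = 0.0252). HSPH1, which exchanges nucleotide on HSP70, and HSPB1, a small heat shock protein, had log2 fold changes of -1.498 ± 0.30 and -1.42 ± 0.17. AHSA1, STIP1 and FKBP4, which work with HSP90, had -1.11 ± 0.22, -0.80 ± 0.15 and -0.75 ± 0.18. HSF1, the factor of the response, was at means of 10.5 to 12.5 RPKM, and DNAJB1 and BAG3 at 14.6 to 11.9 RPKM and 14.9 to 13.6 RPKM, none of them called. Without DMSO replicate 3, 6 heat shock proteins were called lower. CCT5 was at 59.8, 41.3 and 60.9 RPKM with DMSO and 16.97, 24.4 and 25.7 RPKM with FP54, with a log2 fold change of -1.27 (SE 0.20, limma, adjusted p = 0.00454), and CCT3 and CCT6A had log2 fold changes of -1.07 ± 0.17 and -0.95 ± 0.19. CCT8, the most abundant subunit, was at -0.25 ± 0.14 and not called. In the endoplasmic reticulum, HSPA5, the chaperone BiP, was at 159.8, 119 and 136 RPKM with DMSO and 111, 137 and 135 RPKM with FP54, with overlapping treatments. The chaperones DNAJB11 and HYOU1 and the factor XBP1 were the members called lower, with log2 fold changes of -0.95 ± 0.19, -0.68 ± 0.19 and -0.75 ± 0.14, and 6 were called without DMSO replicate 2, while the number was 2 without DMSO replicate 1, DMSO replicate 3 or FP54 replicate 1.

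**Figure D2:**
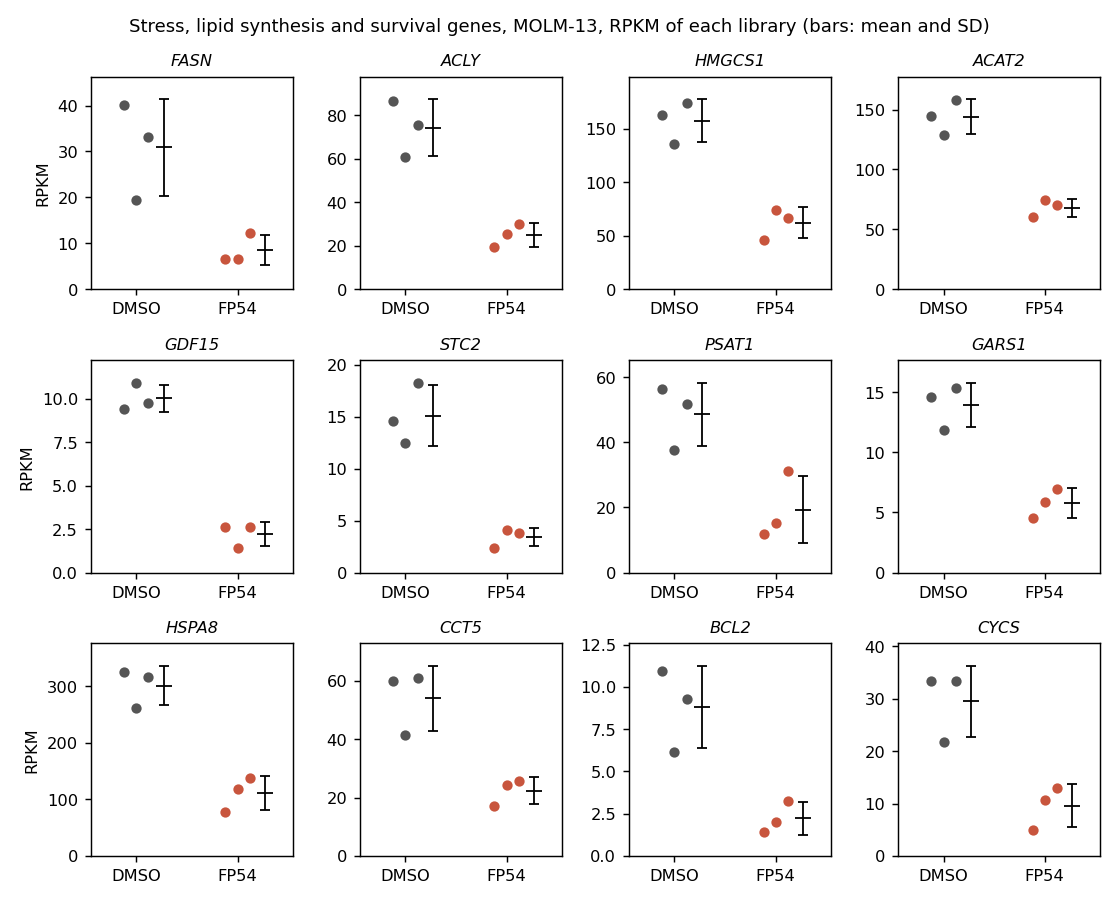
RPKM of 12 genes of lipid synthesis, the stress response, chaperones and survival in each library (points; 3 DMSO in grey, 3 FP54 in red), with the mean and SD of each treatment beside them; the linear axes start at 0. In every panel the FP54 libraries lie below the DMSO libraries, by the largest fold in GDF15 and STC2.

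The lysosome was on the other side. Of 82 lysosomal genes tested of 90 in the table, 26 rose and 1 fell, while 68 lay above 0 on the log2 scale. The count of higher genes was 17 without FP54 replicate 1, the lowest with any library left out. The CLEAR element, the E-box that TFEB and TFE3 bind in lysosomal promoters, was searched as TCACGTGA on both strands. It holds the shorter E-box CACGTG, which other factors also bind. It was found in 11 of 59 matched promoter windows (18.6%) and in 321 of 27305 genes (1.18%), and 7 of the 11 were called higher and 0 lower. These were GAA, GALNS, CTSA, PLD3, MCOLN1, CLN3 and PLBD2, and SCPEP1, LAMP1, ATP6V0D1 and ATP6V1G1 were not called. Over all lysosomal genes tested, 31.7% were called higher, and the part of the element was not tested. The stretches are shown for PLD3, GAA and MCOLN1, again chosen after their values were seen, with the element in capitals, which MCOLN1 holds 2 times.
PLD3: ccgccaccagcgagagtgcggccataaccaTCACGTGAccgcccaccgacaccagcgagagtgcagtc
GAA: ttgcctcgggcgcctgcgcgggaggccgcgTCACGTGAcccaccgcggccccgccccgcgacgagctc
MCOLN1: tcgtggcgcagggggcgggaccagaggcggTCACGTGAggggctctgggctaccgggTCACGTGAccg
They lie at chr19:40348484-40348551, chr17:80101474-80101541 and chr19:7522552-7522619, all on the plus strand. TFEB mRNA was at 2.90, 3.34 and 2.74 RPKM with DMSO and 6.08, 4.49 and 3.57 RPKM with FP54, with no overlap and a log2 fold change of 0.61 (SE 0.21, limma, adjusted p = 0.0632), which was called only without FP54 replicate 3. TFE3 was at means of 14.7 to 18.5 RPKM, not called. LAMP1, a membrane protein of every lysosome, was at 48.5, 33.3 and 43.1 RPKM with DMSO and 33.5, 33.2 and 47.9 RPKM with FP54, with overlapping treatments.

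The lysosomal genes that rose were mostly hydrolases. Of 24 proteases, lipases and other hydrolases, 11 were called higher and 0 lower, with a median log2 fold change of 0.64. PSAP, the precursor of the saposins that present sphingolipids to their hydrolases (chromosome 10, 71816298 to 71851251), was the most abundant, at 234, 241 and 223 RPKM with DMSO and 678, 523 and 559 RPKM with FP54. Its FP54 libraries lay well above the DMSO libraries, with a log2 fold change of 1.33 (SE 0.14, limma, adjusted p = 0.00134). CTSD, the aspartic protease cathepsin D (chromosome 11, 1752752 to 1764573), was at 14.6, 15.1 and 13.5 RPKM with DMSO and 42.5, 30.4 and 32.7 RPKM with FP54, with a log2 fold change of 1.27 (SE 0.16, limma, adjusted p = 0.00168). CTSB, a cysteine protease, was at 49.1, 82.3 and 55.1 RPKM with DMSO and 173, 127 and 109.5 RPKM with FP54, with a log2 fold change of 1.14 (SE 0.22, limma, adjusted p = 0.00891). PLD3, an exonuclease of the lysosome, was at 13.4, 14.6 and 12.1 RPKM with DMSO and 49.1, 29.9 and 38.03 RPKM with FP54, with a log2 fold change of 1.51 (SE 0.18, limma, adjusted p = 0.00168), on a span that overlaps HIPK4 on the other strand. CTSF, CTSH and ASAH1, the acid ceramidase, had log2 fold changes of 1.37 ± 0.27, 0.99 ± 0.16 and 0.91 ± 0.14. CTSC, CTSK, CTSS, CTSL and CTSZ, cathepsins too, were between -0.10 and 0.29 and not called.

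Of 21 glycosidases and sulfatases, 7 were called higher and 0 lower, and 4 were higher without DMSO replicate 3, FP54 replicate 1 or FP54 replicate 3. FUCA1, the fucosidase, was at 23.1, 25.6 and 19.02 RPKM with DMSO and 56.04, 47.9 and 56.2 RPKM with FP54, with a log2 fold change of 1.24 (SE 0.15, limma, adjusted p = 0.00168). GAA, the acid glucosidase that breaks down glycogen (chromosome 17, 80101533 to 80119881), was at 11.1, 9.37 and 10.1 RPKM with DMSO and 27.7, 19.3 and 22.6 RPKM with FP54, with a log2 fold change of 1.17 (SE 0.16, limma, adjusted p = 0.00267). SGSH, the sulfamidase of heparan sulfate, was at 0.626, 0.801 and 0.502 RPKM with DMSO and 5.01, 2.83 and 2.97 RPKM with FP54, a log2 fold change of 2.29 (SE 0.26, limma, adjusted p = 0.00156), on a span that overlaps SLC26A11 and CARD14. MANBA, ARSA and GALNS had log2 fold changes of 1.03 ± 0.13, 0.76 ± 0.20 and 0.54 ± 0.16. GLA and ARSB were at -0.20 ± 0.14 and -0.25 ± 0.23, not called. Of 20 genes listed as membrane proteins and channels, 6 were called higher, among them NPC2 and PLBD2, which are soluble proteins. The rest were SLC29A3, a nucleoside carrier (1.26 ± 0.23), CLN3 (0.95 ± 0.18) and the calcium channels TPCN1 (0.93 ± 0.15) and MCOLN1 (0.86 ± 0.18). NPC2, which hands cholesterol to NPC1, had a log2 fold change of 0.71 ± 0.20, while NPC1 was at 0.20 ± 0.17 and not called. LAPTM4B was the member called lower, at 23.2, 10.3 and 16.3 RPKM with DMSO and 5.74, 5.85 and 12.3 RPKM with FP54, with overlapping treatments, and the call was lost without DMSO replicate 1, DMSO replicate 3, FP54 replicate 1 or FP54 replicate 2. Of 15 subunits of the proton pump, ATP6V1B2 (0.73 ± 0.14) and ATP6V1H (0.60 ± 0.17) were called higher, 1 subunit without DMSO replicate 1, DMSO replicate 3, FP54 replicate 1 or FP54 replicate 3, and 4 without FP54 replicate 2.

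Many phagocyte genes rose, and 4 granule genes of progenitors fell. Of 37 monocyte surface receptors tested of 42, 14 were called higher and 2 lower, with a median of 0.48. CD68, a glycoprotein of macrophage lysosomes (chromosome 17, 7579491 to 7582111), was at 186, 201 and 189 RPKM with DMSO and 496, 402 and 357 RPKM with FP54, with a log2 fold change of 1.11 (SE 0.15, limma, adjusted p = 0.00257). FCGR2B, the inhibitory Fc receptor (chromosome 1, 161663143 to 161678654), was at 14.1, 21.5 and 12.8 RPKM with DMSO and 61.1, 44.4 and 38.2 RPKM with FP54, with a log2 fold change of 1.57 (SE 0.22, limma, adjusted p = 0.00292). It shares long stretches with FCGR2A, which was at means of 14.8 to 21.1 RPKM and not called. The inhibitory receptors LILRB2 and LILRB3 were at 1.67 ± 0.32 and 1.99 ± 0.31, the span of LILRB3 overlapping RPS9 on the other strand. CSF1R, the receptor of the macrophage growth factor, was at 14.5, 17.4 and 13.5 RPKM with DMSO and 32.2, 23.9 and 22.4 RPKM with FP54, with a log2 fold change of 0.77 (SE 0.17, limma, adjusted p = 0.0149). ITGAM, the integrin CD11b, was at 14.6, 15.97 and 13.9 RPKM with DMSO and 26.7, 20.3 and 23.5 RPKM with FP54, with a log2 fold change of 0.65 (SE 0.15, limma, adjusted p = 0.0153), and its partner ITGB2 and the related ITGAX had 0.69 ± 0.15 and 0.79 ± 0.18. CLEC7A, the receptor of fungal glucans, and FCER1G, the signalling chain of Fc receptors, had log2 fold changes of 1.48 ± 0.21 and 0.94 ± 0.20. CD14, the coreceptor of lipopolysaccharide, was at 0.624, 0.484 and 0.490 RPKM with DMSO and 1.39, 1.46 and 1.11 RPKM with FP54, below the filter on mean level and not tested. TREML2 and CCR2, the receptor by which monocytes leave the marrow, were called lower, with log2 fold changes of -0.87 ± 0.20 and -0.65 ± 0.18, the latter not without DMSO replicate 1, DMSO replicate 3, FP54 replicate 1 or FP54 replicate 3. CD33, CX3CR1, TLR2 and CD36 were at 0.09 ± 0.13, 0.04 ± 0.27, -0.24 ± 0.27 and 0.48 ± 0.23, not called.

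Of 28 granule and secreted proteins, 4 were called lower and 10 higher. MPO, the myeloperoxidase of primary granules (chromosome 17, 58269855 to 58280935), was at 18.1, 12.8 and 17.4 RPKM with DMSO and 3.43, 3.29 and 4.64 RPKM with FP54. The FP54 libraries lay far below the DMSO libraries, with a log2 fold change of -2.06 (SE 0.19, limma, adjusted p = 0.000985). CTSG, a serine protease of the same granules, was at 134, 91.3 and 124 RPKM with DMSO and 55.6, 66.2 and 64.4 RPKM with FP54, with a log2 fold change of -0.89 (SE 0.17, limma, adjusted p = 0.00807), and RNASE2 and RNASE3, ribonucleases of granules that resemble each other in sequence, had -0.84 ± 0.23 and -1.08 ± 0.22. ELANE, PRTN3 and AZU1, the other serine protease genes of these granules, were at means of 186 to 186 RPKM, 413 to 354 RPKM and 174 to 215 RPKM, none of them called. S100A8, a chain of calprotectin, was at 0.746, 1.45 and 1.04 RPKM with DMSO and 3.68, 3.47 and 3.83 RPKM with FP54, and S100A9, its partner, at 3.06, 3.85 and 4.12 RPKM with DMSO and 9.82, 13.2 and 8.71 RPKM with FP54. Their log2 fold changes were 1.72 (SE 0.23, limma, adjusted p = 0.00247) and 1.49 (SE 0.19, limma, adjusted p = 0.00209). CLU, the secreted chaperone clusterin (chromosome 8, 27596917 to 27614700), was at 0.433, 0.342 and 0.495 RPKM with DMSO and 2.33, 2.95 and 2.08 RPKM with FP54, with a log2 fold change of 2.28 (SE 0.23, limma, adjusted p = 0.000985). TYROBP, the adaptor of TREM receptors, LGALS3, GRN, S100A4 and S100A6 had log2 fold changes of 0.94 ± 0.15, 0.72 ± 0.16, 0.51 ± 0.15, 0.76 ± 0.14 and 0.62 ± 0.15. LYZ, lysozyme, was at 529, 459 and 478 RPKM with DMSO and 488, 555 and 761 RPKM with FP54, not called. Of the 7 subunits of the phagocyte oxidase, 4 were called higher in the full set and with any library left out, among them NCF1, NCF4 and CYBB, with log2 fold changes of 0.83 ± 0.16, 0.81 ± 0.16 and 0.68 ± 0.15, and NCF1 has near-identical pseudogenes.

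**Figure D3:**
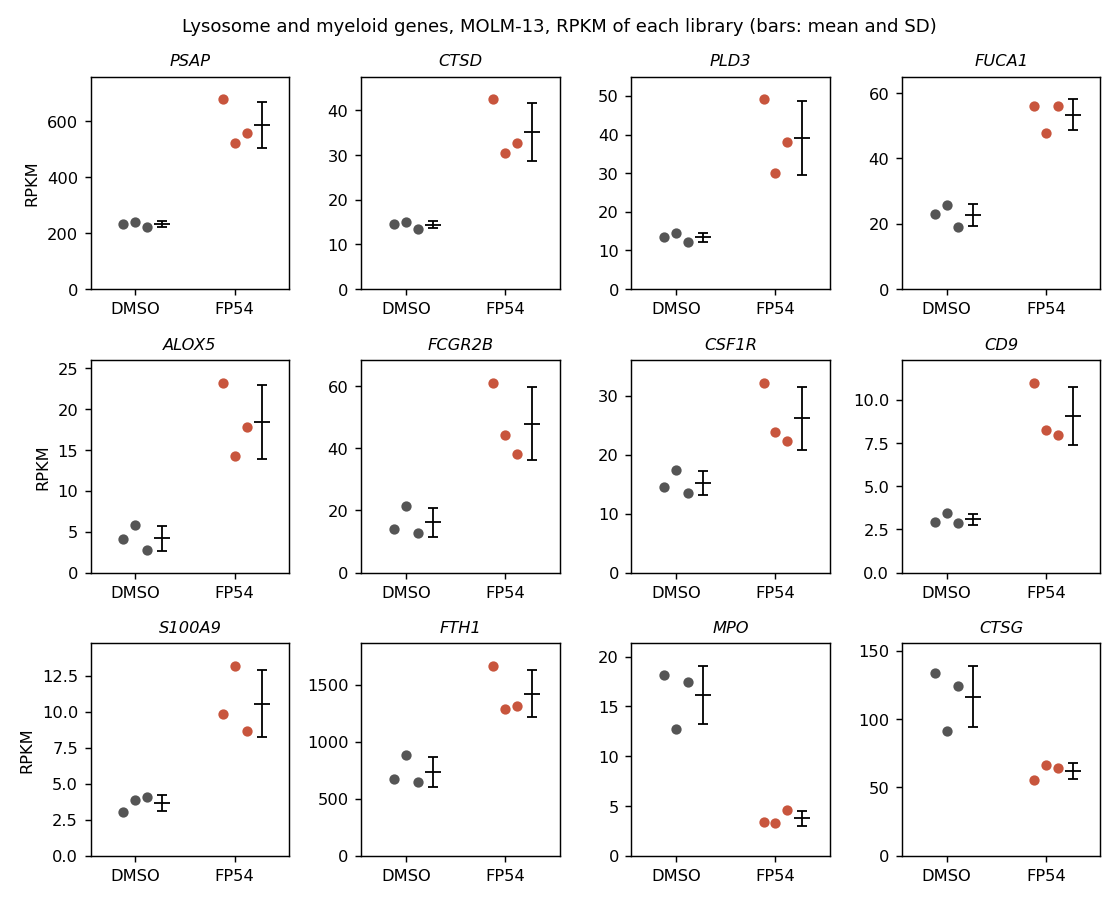
RPKM of 12 lysosomal and myeloid genes in each library (points; 3 DMSO in grey, 3 FP54 in red), with the mean and SD of each treatment beside them; the linear axes start at 0. The FP54 libraries lie above the DMSO libraries in 10 panels, from PSAP to FTH1, and below them in MPO and CTSG.

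Genes of leukotriene synthesis rose at several steps. Of 15 genes of eicosanoid synthesis tested of 22, 7 were called higher and 1 lower. ALOX5, the lipoxygenase that makes leukotriene A4 (chromosome 10, 45374176 to 45446119), was at 4.09, 5.81 and 2.72 RPKM with DMSO and 23.2, 14.3 and 17.8 RPKM with FP54, with no overlap and a log2 fold change of 2.14 (SE 0.26, limma, adjusted p = 0.00169). PLA2G4A, which frees arachidonate, ALOX5AP, which hands it to ALOX5, and LTC4S, which adds glutathione, had log2 fold changes of 0.62 ± 0.16, 0.79 ± 0.15 and 1.25 ± 0.26, LTC4S on 11 reads in its lowest library, while LTA4H, which makes leukotriene B4, was at 0.17 ± 0.14 and not called. In the prostaglandin branch, PTGS1 and PTGDS rose with log2 fold changes of 1.02 ± 0.19 and 1.75 ± 0.21, and PTGS2 was at 0.52 ± 0.21, not called. PTGES2 was called lower (-1.02 ± 0.28), a call lost without DMSO replicate 1, DMSO replicate 3, FP54 replicate 1 or FP54 replicate 3. Of 5 receptors tested of 10, FPR1, the receptor of formyl peptides, was at 0.632, 0.903 and 0.446 RPKM with DMSO and 4.88, 1.86 and 2.57 RPKM with FP54, with a log2 fold change of 2.01 (SE 0.35, limma, adjusted p = 0.00582), and PTAFR, that of platelet-activating factor, rose from a mean of 5.47 to 13.4 RPKM. Both were called with any library left out. The other receptors tested, CYSLTR1, PTGER2 and PTGER4, are those of leukotrienes and prostaglandins. Their log2 fold changes were 0.375, -0.481 and -0.017, and none of them was called.

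**Figure D4:**
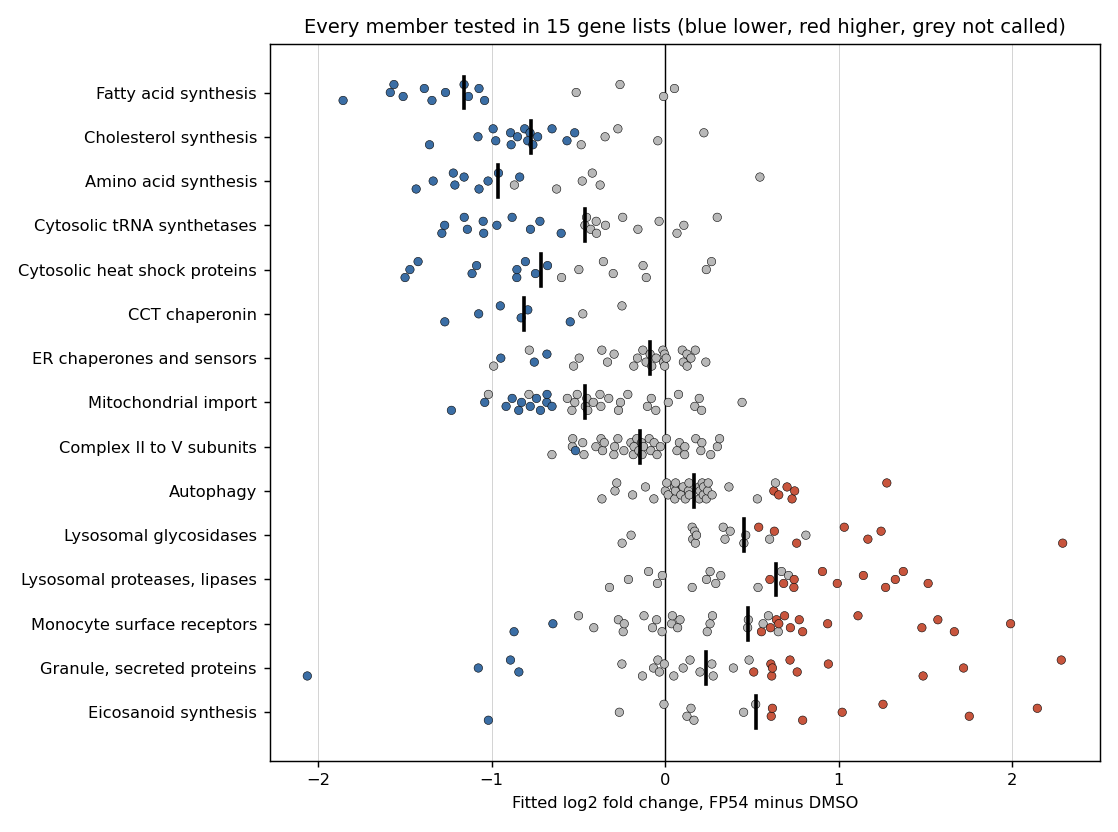
Fitted log2 fold change (FP54 minus DMSO) of every tested member of 15 gene lists, each point a gene (blue called lower, red called higher, grey not called), with a black bar at the median of the list. The members of fatty acid synthesis centre at -1.16 and the lysosomal proteases and lipases at 0.64, while granule proteins spread from -2.06 (MPO) to 2.28 (CLU).

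Of 30 lineage transcription factors tested of 40, 2 were called lower (6.67%, against 9.04% of all genes tested) and 4 higher (13.3%, against 9.3%). EGR1 and EGR2, immediate early factors of monocytic maturation, were at 22.6, 7.90 and 15.8 RPKM with DMSO and 29.9, 23.8 and 44.2 RPKM with FP54 for EGR1 and at 1.40, 1.77 and 0.964 RPKM with DMSO and 5.79, 3.42 and 4.75 RPKM with FP54 for EGR2. Their log2 fold changes were 1.15 (SE 0.34, limma, adjusted p = 0.0415) and 1.69 (SE 0.26, limma, adjusted p = 0.00397). CEBPD and ID2 were also called higher (0.57 ± 0.17 and 0.70 ± 0.21), and GATA2 and IRF8 were called lower (-0.66 ± 0.20 and -0.52 ± 0.16). The IRF8 call was lost without FP54 replicate 2, with quantile scaling, without the trend and with a pseudocount of 1, and with no filter on low values 0 of these factors were called lower and 1 higher. Without DMSO replicate 1, DMSO replicate 3 or FP54 replicate 1, 0 were called lower, and without FP54 replicate 3, 5 were. Called higher was 1 without DMSO replicate 2 or FP54 replicate 1 and 2 without FP54 replicate 3. SPI1 and CEBPA, the main factors of the granulocyte and monocyte lineage, were at 141, 163 and 160.3 RPKM with DMSO and 185, 175 and 159.8 RPKM with FP54 for SPI1 and at 107, 86.4 and 103 RPKM with DMSO and 95.98, 84.7 and 115 RPKM with FP54 for CEBPA. Neither was called, and the treatments overlapped for both. MYB and RUNX1 were at -0.53 ± 0.18 and -0.54 ± 0.22, not called.

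Of 16 genes of the HOXA cluster and its partners, which KMT2A fusions keep active, 1 was called lower (6.25%, against 9.04% of all genes tested) and 0 higher. HOXA9 was at 23.4, 19.1 and 21.4 RPKM with DMSO and 25.4, 23.6 and 25.2 RPKM with FP54, and its partner MEIS1 at 6.36, 6.66 and 6.05 RPKM with DMSO and 8.37, 8.40 and 8.19 RPKM with FP54. Their log2 fold changes were 0.22 (SE 0.13, limma, adjusted p = 0.275) and 0.38 (SE 0.14, limma, adjusted p = 0.0737), neither called. DOT1L, the H3K79 methyltransferase that KMT2A fusions recruit, was the member called lower, from a mean of 15.4 to 8.46 RPKM, and 1 member was called higher without DMSO replicate 2 or FP54 replicate 2. Of 13 genes of FLT3 and STAT5 output, 0 were called lower and 0 higher by limma, with 2 lower and 0 higher at an unadjusted p under 0.05, 1 lower by limma-voom on recovered reads and 1 lower without FP54 replicate 3. FLT3, the receptor tyrosine kinase, was at 91.8, 59.8 and 70.5 RPKM with DMSO and 61.9, 51.1 and 78.5 RPKM with FP54, with a log2 fold change of -0.21 ± 0.20. PIM1, a kinase induced by STAT5, was at 81.1, 52.1 and 71.8 RPKM with DMSO and 61.5, 52.8 and 83.96 RPKM with FP54, with overlapping treatments.

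Of 27 ERK outputs and feedback genes, 9 were called lower and 1 higher. FOSL1, a partner of JUN in AP-1 (chromosome 11, 65892049 to 65900573), was at 9.10, 4.84 and 7.88 RPKM with DMSO and 0.856, 1.91 and 2.20 RPKM with FP54, with a log2 fold change of -2.12 (SE 0.33, limma, adjusted p = 0.00454). JUN was at 14.8, 22.9 and 15.3 RPKM with DMSO and 8.30, 8.38 and 6.15 RPKM with FP54, with a log2 fold change of -1.19 (SE 0.20, limma, adjusted p = 0.00543), and CCND1, ETV4, SPRY1 and DUSP7 had -1.16 ± 0.25, -1.14 ± 0.20, -1.04 ± 0.30 and -0.92 ± 0.19. EGR3 was the member called higher (1.53 ± 0.24). DUSP6, a phosphatase that ERK induces, was at 7.19, 6.39 and 6.48 RPKM with DMSO and 7.08, 7.29 and 11.3 RPKM with FP54, not called, and FOS and DUSP5 were at -0.19 ± 0.18 and -0.28 ± 0.21, not called.

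Interferon-stimulated genes were called higher more often than lower. Of 41 tested of 60, 12 were called higher (29.3%, against 9.3% of all genes tested). Another 3 were called lower (7.32%, against 9.04%), and 14 were below 0. The interferon-stimulated response element, searched as GAAA, any 2 bases and GAAA on both strands, was found in 16 of 29 matched windows (55.2%) and in 1195 of 27305 genes (4.38%). Of the 16, 3 were called higher (IFI6, IFIT1 and ISG15) and 1 lower (IFITM1). In the whole list 29.3% were called higher and 7.32% lower, and the part of the element was not tested. The stretches are shown for 2 members that rose and the 1 that fell, since the element is common to them, with its letters in capitals.
IFI6: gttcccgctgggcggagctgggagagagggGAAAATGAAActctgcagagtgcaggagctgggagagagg
IFIT1: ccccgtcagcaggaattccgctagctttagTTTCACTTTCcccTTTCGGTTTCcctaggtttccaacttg
IFITM1: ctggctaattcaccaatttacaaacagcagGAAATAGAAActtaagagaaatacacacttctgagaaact
They lie at chr1:27672309-27672378 on the minus strand, chr10:89392477-89392546 on the plus strand and chr11:313970-314039 on the plus strand, and in IFIT1 the element lies on the opposite strand, 2 times. IFI6 was at 7.10, 5.64 and 8.93 RPKM with DMSO and 18.1, 22.7 and 13.9 RPKM with FP54, IFIT1 at 0.681, 1.06 and 0.675 RPKM with DMSO and 1.65, 1.90 and 1.15 RPKM with FP54 and IFITM1 at 2.39, 1.77 and 2.28 RPKM with DMSO and 1.53, 0.824 and 1.25 RPKM with FP54, the last on as few as 8 reads. SAMD9L, GBP2, UBA7, which activates ISG15, and IRF7 had log2 fold changes of 1.05 ± 0.22, 0.94 ± 0.21, 0.96 ± 0.15 and 0.81 ± 0.25, and XAF1 fell (-0.54 ± 0.13). Leaving out DMSO replicate 1, DMSO replicate 3 or FP54 replicate 1 gave 7, 6 and 7 called higher, and leaving out DMSO replicate 1 or 3 gave 0 and 1 called lower. The call of IFITM1 was lost without DMSO replicate 1, DMSO replicate 3, FP54 replicate 2 or FP54 replicate 3. It was also lost with no filter on low values and by limma-voom on recovered reads. BST2, IFITM3 and EIF2AK2 were at -0.14 ± 0.19, -0.25 ± 0.23 and -0.01 ± 0.16, not called.

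In antigen presentation, 2 of 15 class I genes tested of 18 were called higher, among them PSMB9 (0.58 ± 0.17), and 1 was without DMSO replicate 3 or FP54 replicate 1. None was called lower by limma in all 6 libraries, against 1 without DMSO replicate 2 or FP54 replicate 3 and 2 without FP54 replicate 2. HLA genes are alike in sequence and differ between people, so reads may have been split or lost between them. B2M, the light chain of class I, was at 93.7, 104 and 81.4 RPKM with DMSO and 165, 101 and 154 RPKM with FP54, with overlapping treatments and a log2 fold change of 0.56 (SE 0.19, limma, adjusted p = 0.0669) that did not pass the cutoff. Of 5 class II genes tested of 14, HLA-DRA was called higher, from a mean of 1.67 to 3.22 RPKM, and CD74, the invariant chain, was at 0.33 ± 0.13, not called, and 2 class II genes were called without DMSO replicate 2 or FP54 replicate 2. Among 19 NF-kB factors and feedback genes, CD83 and TNFAIP3 were called lower (-0.73 ± 0.12 and -0.54 ± 0.14) and MAP3K8 higher (0.88 ± 0.20), and called higher were 5 without DMSO replicate 2, 3 without FP54 replicate 3 and 2 without FP54 replicate 2. The call of TNFAIP3 was lost without DMSO replicate 2 or FP54 replicate 2. NFKBIA, the inhibitor that NF-kB induces, was at 29.8, 38.3 and 33.2 RPKM with DMSO and 45.8, 40.6 and 34.5 RPKM with FP54, not called. Of 20 cytokines and chemokines tested of 33, 6 were called higher and 1 lower. CCL2, which draws monocytes, rose from a mean of 5.35 to 14.6 RPKM, with a log2 fold change of 1.38 (SE 0.26, limma, adjusted p = 0.00864), CXCL16 and TNFSF14 had 1.10 ± 0.32 and 0.80 ± 0.15, and IL1B 0.65 ± 0.18. OSM was called lower at an adjusted p of 0.0512 from limma (-0.59 ± 0.19), and the call was lost with any library but DMSO replicate 2 left out. Cytokines called higher numbered 3 without DMSO replicate 3 or FP54 replicate 1 and 10 without FP54 replicate 2.

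On the p53 list more genes were called lower than higher. Of 34 genes tested, 12 were called lower and 1 higher, with a median of -0.34, and 7 were lower without DMSO replicate 3. EDA2R, a receptor of the TNF family, AEN, an exonuclease, and PLK2, a kinase, had log2 fold changes of -1.65 ± 0.28, -1.37 ± 0.22 and -1.25 ± 0.15. CDKN1A, the cell cycle inhibitor p21, was at 219, 206 and 198 RPKM with DMSO and 164, 124 and 145 RPKM with FP54, with a log2 fold change of -0.53 (SE 0.14, limma, adjusted p = 0.0295). This call was lost without any 1 of the DMSO replicates, FP54 replicate 2 or FP54 replicate 3. MDM2, the ligase of p53, was at -0.60 ± 0.17, a call lost without DMSO replicate 2, DMSO replicate 3 or FP54 replicate 1. BAX, BBC3, PMAIP1 and FAS, which promote death, were at -0.26 ± 0.15, -0.19 ± 0.14, -0.32 ± 0.12 and -0.19 ± 0.21, none of them called. TNFRSF1B was the member called higher (0.94 ± 0.17), and 2 were without DMSO replicate 2, FP54 replicate 2 or FP54 replicate 3.

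Of 26 BCL2 family and caspase genes, 4 were called lower and 2 higher. BCL2, the antiapoptotic protein (chromosome 18, 63123346 to 63320128), was at 10.96, 6.17 and 9.27 RPKM with DMSO and 1.39, 2.01 and 3.26 RPKM with FP54. Every FP54 library lay below every DMSO library, with a log2 fold change of -1.98 (SE 0.30, limma, adjusted p = 0.00385). MCL1, the related antiapoptotic gene, was at 51.4, 59.4 and 45.1 RPKM with DMSO and 53.01, 46.6 and 53.9 RPKM with FP54, with overlapping treatments and a log2 fold change of -0.02 ± 0.14, and BCL2L1 and BCL2A1 were at -0.39 ± 0.17 and 0.17 ± 0.16, not called. CYCS, cytochrome c (chromosome 7, 25118656 to 25125260), was at 33.3, 21.7 and 33.4 RPKM with DMSO and 5.04, 10.7 and 12.96 RPKM with FP54, with a log2 fold change of -1.69 (SE 0.31, limma, adjusted p = 0.00780). BIK and BID, proapoptotic members, also fell (-1.05 ± 0.17 and -0.75 ± 0.14). CASP6 and CFLAR were called higher (0.86 ± 0.15 and 0.57 ± 0.15), and 1 was without DMSO replicate 1, DMSO replicate 3 or FP54 replicate 3. BCL2L11 and BMF were at 0.54 ± 0.19 and 0.57 ± 0.20, not called.

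In mitochondria, genes of import and assembly fell in more members than those of the respiratory chain itself. Of 37 import, chaperone and protease genes, 12 were called lower and 0 higher, with a median of -0.46. TOMM40, the import channel of the outer membrane, was at 20.50, 11.1 and 20.7 RPKM with DMSO and 6.24, 6.41 and 8.89 RPKM with FP54, with a log2 fold change of -1.23 (SE 0.25, limma, adjusted p = 0.0101). TRAP1, HSPD1 and HSPA9, chaperones of the matrix, had log2 fold changes of -1.04 ± 0.23, -0.78 ± 0.16 and -0.68 ± 0.15, and TIMM50, a receptor of the inner membrane, -0.92 ± 0.25. The count became 23, 5 and 6 when DMSO replicate 2, DMSO replicate 3 or FP54 replicate 1 was left out. Of 33 assembly factors, 6 were called lower and 1 higher. NDUFAF4, an assembly factor of complex I, was at 4.63, 2.02 and 4.796 RPKM with DMSO and 0.532, 0.808 and 1.37 RPKM with FP54, with a log2 fold change of -1.95 (SE 0.37, limma, adjusted p = 0.00864), and NDUFAF2 and NDUFAF8 had -1.40 ± 0.25 and -1.06 ± 0.28. SURF1, a factor of complex IV, rose (0.71 ± 0.20). Without DMSO replicate 3 or FP54 replicate 1, 3 assembly factors were lower and 0 higher, and without FP54 replicate 3, 2 were higher.

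Of 36 complex I subunits 1 was called lower, NDUFB9 (-0.61 ± 0.16), and of 38 subunits of complexes II to V 1 was, ATP5F1D (-0.52 ± 0.14), with medians of -0.10 and -0.14. Without DMSO replicate 2, 7 members of each list were called lower. Neither call was kept without DMSO replicate 1 or DMSO replicate 3. Without FP54 replicate 1, 0 complex I subunits were called, without FP54 replicate 3 the counts were 2 and 2, and without FP54 replicate 2, 2 subunits of complexes II to V were. The 13 mRNAs encoded in mitochondrial DNA had a median of -0.49, with 12 below 0, but 0 were called lower by limma, with 3 lower at an unadjusted p under 0.05, 0 lower by limma-voom on recovered reads and 7 lower without FP54 replicate 3. MT-CYB, a subunit of complex III, was at 949.9, 707 and 650.3 RPKM with DMSO and 499.9, 301 and 673 RPKM with FP54. MT-ND6 was the exception, called higher at 92.2, 90.1 and 83.8 RPKM with DMSO and 115, 169 and 211 RPKM with FP54, with a log2 fold change of 0.85 (SE 0.20, limma, adjusted p = 0.0181). It is the only one of them encoded on the light strand, and the counting strand is not stated. Of 28 genes of mitochondrial transcription and translation, 4 were called lower. TUFM, the elongation factor of mitochondria, was at 133, 104 and 149 RPKM with DMSO and 59.9, 73.8 and 68.1 RPKM with FP54, with a log2 fold change of -0.92 (SE 0.16, limma, adjusted p = 0.00620). TFB2M, a transcription factor of mitochondrial DNA, had -0.83 ± 0.21, and TWNK, the helicase, -1.85 ± 0.56, with treatments that overlapped. Leaving out DMSO replicate 1, DMSO replicate 2 or FP54 replicate 1 gave counts of 1, 8 and 2, and leaving out FP54 replicate 2 gave 1 gene called higher. Of 72 mitochondrial ribosomal proteins tested of 77, 7 were called lower and 2 higher, with a median of -0.26. MRPL36 and MRPL3 had the largest decreases (-1.28 ± 0.28 and -1.06 ± 0.20), and MRPL41 and MRPL55 rose (0.70 ± 0.19 and 0.66 ± 0.20). Leaving out DMSO replicate 2 gave 26 called lower, DMSO replicate 1 gave 4, and DMSO replicate 3 or FP54 replicate 1 gave 3. Leaving out DMSO replicate 2 or FP54 replicate 1 gave 0 called higher, and any library but these and DMSO replicate 3 gave 1.

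Some genes of nucleotide synthesis were called lower in both branches with the filter on low values, and 0 in either with no filter. All 11 purine synthesis genes tested were below 0, 5 of them called lower. PAICS, a bifunctional enzyme of the pathway, was at 40.3, 25.8 and 33.9 RPKM with DMSO and 12.8, 12.4 and 21.3 RPKM with FP54, with a log2 fold change of -1.12 (SE 0.23, limma, adjusted p = 0.0110), and ATIC and GART, which act after and before it, had -1.09 ± 0.22 and -1.05 ± 0.27. The count was 8 without DMSO replicate 2, 3 without DMSO replicate 1, DMSO replicate 3 or FP54 replicate 2, and 2 without FP54 replicate 1. Of 11 pyrimidine and one-carbon genes, 3 were called lower, NME1, CTPS1 and MTHFD1 (-1.80 ± 0.45, -1.33 ± 0.41 and -0.78 ± 0.19), 5 without DMSO replicate 2 and 1 without FP54 replicate 1. CAD, which begins pyrimidine synthesis, was at 5.68, 2.62 and 4.98 RPKM with DMSO and 2.14, 2.17 and 3.07 RPKM with FP54, and its log2 fold change of -0.77 (SE 0.28, limma, adjusted p = 0.0780) was not called. Of 15 polyamine and methionine genes, 4 were called lower, 1 was with no filter, and 2 were without DMSO replicate 1, DMSO replicate 3 or FP54 replicate 1. SRM, spermidine synthase, was at 21.2, 9.78 and 20.51 RPKM with DMSO and 3.27, 6.34 and 7.51 RPKM with FP54, with a log2 fold change of -1.57 (SE 0.34, limma, adjusted p = 0.0138). AHCY, which clears the product of methylation reactions, and MTAP had -0.77 ± 0.14 and -1.02 ± 0.26. ODC1, which makes putrescine, was at 19.6, 7.42 and 14.4 RPKM with DMSO and 8.82, 9.86 and 16.01 RPKM with FP54, with overlapping treatments.

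Of 50 translation factors tested, 11 were called lower and 0 higher. Called lower were 7 without DMSO replicate 1 and 5 without DMSO replicate 3 or FP54 replicate 1, and 1 factor was called higher without FP54 replicate 2 or FP54 replicate 3. EIF3J and EIF3A, of the initiation factor that binds the small subunit, had log2 fold changes of -1.24 ± 0.28 and -0.93 ± 0.26, ABCE1, which recycles ribosomes, -1.15 ± 0.28, and EIF2B3, of the exchange factor of eIF2, -1.01 ± 0.27. EEF2 and EEF1A1, the elongation factors, were at means of 1497 to 1499 RPKM and 847 to 1075 RPKM, not called. Of 34 SR and hnRNP splicing factors, 5 were called lower, HNRNPM, HNRNPA2B1, HNRNPA3, SRSF3 and HNRNPA1 (-1.29 ± 0.23, -0.88 ± 0.19, -0.85 ± 0.21, -0.74 ± 0.15 and -0.52 ± 0.15). Of 54 nuclear pore and transport genes, 11 were called lower and 1 higher. Called lower were 17 without DMSO replicate 2 or FP54 replicate 3, 8 without FP54 replicate 1 and 7 with no filter on low values. RAN, the GTPase of nuclear transport, was at 57.9, 39.4 and 56.5 RPKM with DMSO and 17.9, 26.5 and 28.8 RPKM with FP54, with a log2 fold change of -1.08 (SE 0.21, limma, adjusted p = 0.00919), and its partners RANBP1, RANGAP1 and RCC1 had -1.23 ± 0.32, -1.18 ± 0.33 and -0.94 ± 0.13. AAAS, a pore protein, was the member called higher (0.71 ± 0.15).

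Proteasome and autophagy genes lay on opposite sides. Of 34 proteasome subunits, 7 were called lower and 0 higher, with 31 below 0 and a median of -0.41. PSMB6, a catalytic subunit, was at 37.4, 29.3 and 46.1 RPKM with DMSO and 18.1, 24.3 and 21.5 RPKM with FP54, with a log2 fold change of -0.80 (SE 0.19, limma, adjusted p = 0.0171), and PSMA3 and PSMD7 had -0.77 ± 0.18 and -0.76 ± 0.21. PSMB2 was called (-0.82 ± 0.25) although its treatments overlapped. The count was 14 without DMSO replicate 2, 4 without DMSO replicate 1, 3 without FP54 replicate 1 and 2 without DMSO replicate 3. Of 38 autophagy genes, 6 were called higher and 0 lower, with 32 above 0 and a median of 0.17. ATG16L2 was at 9.35, 6.65 and 9.95 RPKM with DMSO and 20.3, 21.6 and 20.49 RPKM with FP54, with a log2 fold change of 1.28 (SE 0.17, limma, adjusted p = 0.00228). RUBCN, a brake on autophagosome fusion, and GABARAPL1 and GABARAP, which decorate autophagosomes, had 0.73 ± 0.19, 0.70 ± 0.17 and 0.63 ± 0.16. SQSTM1, the receptor p62, was at 33.3, 56.8 and 38.7 RPKM with DMSO and 92.3, 67.6 and 55.4 RPKM with FP54, with treatments that overlapped. Leaving out DMSO replicate 1 gave 3 called higher, and DMSO replicate 3 or FP54 replicate 1 gave 2. ULK1, BECN1 and ATG5, of the core machinery, were at 0.22 ± 0.20, -0.06 ± 0.14 and -0.28 ± 0.18, not called.

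In iron and metal handling, the genes of storage rose and that of uptake fell. FTH1 and FTL, the chains of ferritin, were at 675, 883 and 645 RPKM with DMSO and 1664, 1288 and 1319 RPKM with FP54 for FTH1 (chromosome 11, 61959718 to 61967634) and at 1475, 1292 and 1169.7 RPKM with DMSO and 2909.7, 1734 and 2504 RPKM with FP54 for FTL. Their log2 fold changes were 0.96 (SE 0.18, limma, adjusted p = 0.00744) and 0.83 (SE 0.20, limma, adjusted p = 0.0210), both genes have processed pseudogenes, and the call of FTL was lost without DMSO replicate 2, DMSO replicate 3 or FP54 replicate 1. TFRC, the transferrin receptor, was at 34.7, 29.2 and 25.98 RPKM with DMSO and 16.3, 12.6 and 19.95 RPKM with FP54, with no overlap and a log2 fold change of -0.89 (SE 0.19, limma, adjusted p = 0.0118). STEAP3, which reduces iron, was also called lower (-1.25 ± 0.36), with overlapping treatments, and PPOX, of heme synthesis, higher (0.89 ± 0.22). Of 16 iron and heme genes tested of 21, this made 2 lower and 3 higher, 1 lower without DMSO replicate 1, DMSO replicate 3 or FP54 replicate 1, and 1 higher without FP54 replicate 1. Of 8 metallothionein and zinc genes tested of 13, 3 were called higher. The count was 5 without DMSO replicate 1 and 4 without FP54 replicate 2. It was 2 without any other single library and 1 with no filter on low values. MT2A, which binds zinc and copper, was at 10.4, 7.92 and 8.45 RPKM with DMSO and 33.2, 15.4 and 30.02 RPKM with FP54, with a log2 fold change of 1.48 (SE 0.26, limma, adjusted p = 0.00644). The metallothioneins are alike in sequence, and MTF1, the factor that drives them, was at -0.08 ± 0.15, not called.

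Of 22 NRF2 pathway genes tested of 27, 3 were called higher and 2 lower. BLVRB, a biliverdin reductase, rose from a mean of 14.3 to 34.7 RPKM, with a log2 fold change of 1.23 (SE 0.20, limma, adjusted p = 0.00466), and AKR1C3 and EPHX1 had 0.70 ± 0.18 and 0.54 ± 0.17. The call of EPHX1 was lost with any 1 of the 6 libraries left out, in limma-voom on recovered reads and with a pseudocount of 1, which also ended that of AKR1C3. AKR1B1 and MAFG fell (-1.06 ± 0.24 and -0.81 ± 0.14). HMOX1, heme oxygenase, was at 2.23, 3.33 and 1.72 RPKM with DMSO and 6.98, 3.87 and 3.17 RPKM with FP54, and its log2 fold change of 0.89 (SE 0.31, limma, adjusted p = 0.0676) was not called. NQO1, a standard target of NRF2, was at 2.22, 1.53 and 1.94 RPKM with DMSO and 1.96, 1.501 and 1.93 RPKM with FP54, with overlapping treatments. Called higher was 1 without DMSO replicate 1 or DMSO replicate 3. Of 35 targets of the hypoxia factors tested of 39, 4 were called higher and 1 lower. ALDOA, GPI and P4HA1, an aldolase, an isomerase of glycolysis and a prolyl hydroxylase of collagen, had log2 fold changes of 1.05 ± 0.20, 0.79 ± 0.17 and 0.52 ± 0.15, and NDRG1 0.80 ± 0.18. CA9, a carbonic anhydrase, was called lower (-0.88 ± 0.26), on as few as 6 reads, and the call was kept only without DMSO replicate 1, while 2 targets were lower without FP54 replicate 3. VEGFA, LDHA, PGK1 and SLC2A1 were at 0.24 ± 0.15, -0.11 ± 0.13, 0.02 ± 0.15 and -0.10 ± 0.13, none of them called. VHL, the ligase subunit that FP54 recruits, was at 18.6, 18.02 and 20.2 RPKM with DMSO and 12.9, 13.96 and 15.4 RPKM with FP54, with no overlap and a log2 fold change of -0.42 (SE 0.14, limma, adjusted p = 0.0530), not called. By limma 0 of 6 HIF subunits and regulators were called, with 1 lower and 2 higher at an unadjusted p under 0.05, 0 by limma-voom on recovered reads and 1 higher without DMSO replicate 2.

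FTO mRNA (chromosome 16, 53701692 to 54158512) was at 1.09, 0.938 and 1.01 RPKM with DMSO and 0.897, 1.00 and 1.13 RPKM with FP54, with overlapping treatments, and since FP54 acts on the protein this does not check the treatment. Of 26 writers, erasers and readers of m6A tested of 27, 3 were called lower and 1 higher. HNRNPA2B1, an RNA-binding protein tied to m6A, was at 143, 119.9 and 155 RPKM with DMSO and 55.9, 86.7 and 88.3 RPKM with FP54, with a log2 fold change of -0.88 (SE 0.19, limma, adjusted p = 0.0139). RBM15 and RBM15B, which guide the writer complex, had -0.57 ± 0.15 and -0.56 ± 0.17, and FMR1, which binds methylated mRNA, rose (0.72 ± 0.18). Called lower was 1 without DMSO replicate 1, DMSO replicate 3 or FP54 replicate 2, and 2 without FP54 replicate 1 or FP54 replicate 3. The call of FMR1 was lost without DMSO replicate 1, DMSO replicate 3, FP54 replicate 1 or FP54 replicate 2. METTL3, the catalytic writer, was at 13.7, 11.7 and 12.6 RPKM with DMSO and 10.7, 9.72 and 11.2 RPKM with FP54, ALKBH5, the other eraser, at 20.8, 23.03 and 22.2 RPKM with DMSO and 22.2, 19.2 and 23.3 RPKM with FP54, and YTHDF2, the reader tied to decay, at 23.1, 19.00 and 21.9 RPKM with DMSO and 16.2, 16.1 and 19.3 RPKM with FP54. None of the 3 was called.

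Surface adhesion rose in several members. Of 19 integrins and adhesion genes tested of 28, 7 were called higher and 1 lower, and 4 were higher without DMSO replicate 1, DMSO replicate 3, FP54 replicate 1 or FP54 replicate 3, while 2 were lower without DMSO replicate 2 or FP54 replicate 3. CD9, a tetraspanin (chromosome 12, 6199715 to 6238271), was at 2.91, 3.44 and 2.86 RPKM with DMSO and 10.99, 8.27 and 7.96 RPKM with FP54, with a log2 fold change of 1.52 (SE 0.17, limma, adjusted p = 0.00156). ITGB7, a subunit of the gut-homing integrin, was at 9.10, 10.5 and 8.83 RPKM with DMSO and 34.5, 21.1 and 23.9 RPKM with FP54, with a log2 fold change of 1.45 (SE 0.19, limma, adjusted p = 0.00209), and PECAM1 and SELPLG, the ligand of selectins, had 0.63 ± 0.12 and 0.61 ± 0.19. ITGA7 fell (-0.84 ± 0.15), and ITGA4, ITGA5 and ITGB1 were at -0.64 ± 0.22, -0.15 ± 0.16 and 0.01 ± 0.14, not called. Of 39 regulators of actin, 5 were called lower and 1 higher. EZR, which ties actin to the membrane, was at 79.6, 88.6 and 101 RPKM with DMSO and 34.3, 61.7 and 36.8 RPKM with FP54, with a log2 fold change of -1.06 (SE 0.21, limma, adjusted p = 0.0103). CDC42EP1 and CDC42EP3, effectors of CDC42, had -1.20 ± 0.25 and -1.07 ± 0.20, and GSN, which severs actin filaments, rose (0.68 ± 0.14). Called lower were 3 without DMSO replicate 1 or FP54 replicate 1, and called higher were 3 without FP54 replicate 2 and 2 without DMSO replicate 2. ACTB, ACTG1 and RHOA were at -0.06 ± 0.17, 0.40 ± 0.15 and -0.18 ± 0.19, not called.

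Zinc finger genes named ZNF and a number, many of them repressors with KRAB domains, had 18 called lower and 26 higher of 295 tested of 507, shares below those over all genes. ZNF37A and ZNF598, a ubiquitin ligase of stalled ribosomes, had log2 fold changes of -1.12 ± 0.20 and -1.05 ± 0.20, and ZNF554 and ZNF862 of 1.17 ± 0.20 and 1.07 ± 0.17. ZNF593 and ZNF404 were also among the largest, at -1.09 ± 0.31, with overlapping treatments, and 0.97 ± 0.25. Leaving out DMSO replicate 1, DMSO replicate 3 or FP54 replicate 1 gave 9, 8 and 11 called lower and 17, 10 and 13 called higher, and leaving out FP54 replicate 3 gave 17 called higher. Of 20 genes of sphingolipid turnover outside the lysosome tested of 36, 0 were called lower and 0 higher by limma, with 1 lower and 1 higher at an unadjusted p under 0.05, 0 by limma-voom on recovered reads and 1 higher without DMSO replicate 2 or FP54 replicate 2. CERS2, a ceramide synthase, and CERK, ceramide kinase, were at -0.35 ± 0.15 and 0.52 ± 0.17.

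The cells were checked against marker genes of other blood cells. The 10 markers of myeloid blasts summed to 855 to 964.7 RPKM with DMSO and 936.5 to 1209 RPKM with FP54, none of them at 0 in any library. LYZ alone was at 459 to 529 RPKM with DMSO and 488 to 761 RPKM with FP54. Of the 9 markers tested, 1 was called lower, MPO, and 1 higher, CSF1R. The 12 erythroid markers summed to 4.81 to 6.71 RPKM with DMSO and 5.50 to 6.44 RPKM with FP54, mostly from EPOR and with 9 or 10 of them at 0, HBB in every library. The 7 megakaryocyte markers summed to 0.342 to 0.414 and 0.507 to 0.791 RPKM, and the 7 B cell markers to 0.803 to 1.04 and 0.607 to 1.22 RPKM. The 9 markers of T and NK cells summed to 102.4 to 110.5 RPKM with DMSO and 87.3 to 91.7 RPKM with FP54, mostly from NKG7, a granule protein, and TRAC, the constant gene of the T cell receptor. TRAC was at 28.4, 27.5 and 31.8 RPKM with DMSO and 13.7, 15.1 and 15.5 RPKM with FP54 and NKG7 at 73.3, 78.1 and 77.99 RPKM with DMSO and 77.2, 71.3 and 71.1 RPKM with FP54, while CD3G and CD2, markers that define T cells, were at 0 in every library. The part of these markers in the results was not tested.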

How the data were processed

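Poly(A) RNA of 6 MOLM-13 libraries, 3 treated with FP54 and 3 with DMSO for 48 hours, was sequenced by the authors. Per the methods of the study, adapters were removed with Cutadapt 4.8, duplicates with Clumpify, reads were aligned to hg38 with STAR 2.7.11b and counted over GENCODE protein-coding genes with featureCounts 2.0.3, and RPKM values were deposited by the authors. Strand settings are not given in the sources used here. From these RPKM values, log2(RPKM + 0.1) was fitted with limma 3.58.1 (R 4.3.3, empirical Bayes with a mean trend) over the 9710 genes with a mean of at least 1 RPKM, without covariates. Values were prepared with Python 3.11.15, numpy 2.4.6 and pandas 2.3.3 and drawn with matplotlib 3.10.9. The fit was tested on simulated data.

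Named genes were the 12 largest changes each way among genes called, with an adjusted p below 0.05, no overlap and not on a list left aside, the 6 largest with a mean of at least 20 RPKM, up to 3 called members each way per role, and a set of known regulators. Other members, named to show the rest of a list, were chosen after their values were seen. The members and lists were chosen with earlier results of these data known. Alternatives were pseudocounts of 1 and 0.01, no filter, a filter at 5 RPKM, median-ratio and quantile scaling, a replicate block, no trend, a log2 fold cutoff of 1, limma-voom on reads recovered from the RPKM, and each library left out. Recovered reads came out whole within 0.05 for 99% to 99.3% of low values. A few members are counted in their lists but not reported here by name. A second table of NB4 cells was not analysed here. Sequences are from RefSeq on GRCh38.p14, and gene positions are from the annotation of that build.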

Additional observations from a re-analysis of the deposited data

How the results depend on the processing

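The 878 genes called lower became 560 with a filter at 5 RPKM, 530 with no filter and 301 at a log2 fold cutoff of 1, and the 903 called higher became 509 with the filter at 5 RPKM and 236 at the larger fold. Fewer genes were tested at 5 RPKM and the fold cutoff is stricter, while the cause of the change without a filter was not tested. With 1 library left out, from 472 (without DMSO replicate 3) to 1222 genes were lower and from 552 (without FP54 replicate 1) to 1130 higher. In all, 7204 values were recomputed, of which 6364 kept their direction and side of the threshold or their size, 516 moved, 294 lost a call, 12 gained one and 18 changed sign. The 238 named genes include some that were not called, such as SPI1, FLT3 and METTL3, and had no call to lose. The share of called genes that lost their call is therefore larger than counts out of 238 show. Of the 238, 76 lost their call with no filter, 9 without the trend, 7 with limma-voom on recovered reads, 7 with a pseudocount of 1, 4 with quantile scaling, 3 with median-ratio scaling and 1 with a pseudocount of 0.01. With no filter, mitochondrial genes called lower became 13 from 31, stress response genes 18 from 32, nucleotide and polyamine genes 1 from 12, and lysosomal genes called higher 16 from 26. From 15 (without DMSO replicate 2) to 45 (without FP54 replicate 1) of the 238 lost their call with 1 library left out. The calls of USP18 (of the interferon list), PSMB9, OSM, CA9, RBM15B and CDKN1A were lost with any of 5 libraries left out, and that of EPHX1 with any of the 6.

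The genes whose log2 fold change turned sign had not been called. With quantile scaling CEBPA was at 0.050, PIM1 at 0.012 and MCL1 at 0.058. With 1 library left out, FTO ran from -0.082 to 0.070, CEBPA from -0.125 to 0.093, PIM1 from -0.237 to 0.096, ATF4 from -0.268 to 0.0069, NQO1 from -0.205 to 0.052, MCL1 from -0.113 to 0.086, ODC1 from -0.585 to 0.110 and ALKBH5 from -0.089 to 0.047.

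Libraries with the same replicate number did not deviate together: the correlations across genes of their deviations from the treatment means were -0.262, -0.134 and -0.058. In a fit with a replicate block, 880 genes were lower and 817 higher, and 6 of the 238 named genes lost their call, EPHX1, IRF8, PSMB9, OSM, ATP5F1D and RBM15B. No library correlated best with the one of its own number. Depth limits the genes with few reads in FP54 replicate 2, the shallowest library.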
